A study of Drosophila melanogaster with 4 samples.

Results

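H3K23ac, histone H3 acetylated at a lysine of its tail, was mapped by ChIP-seq, the sequencing of immunoprecipitated chromatin, along the right arm of chromosome 3 of Drosophila melanogaster, 3R. The members were all clusters, the authors' regions of significant H3K23ac enrichment, that started on 3R from position 2000001 to the end of the arm at 27905053 in FlyBase release 5. This stretch of 25.9 Mb leaves out the sequence next to the centromere. It held 1596 of the 6267 clusters of ChIP replicate 1, 2901 of the 11757 of ChIP replicate 2 and 4176 of the 17999 of the authors' replicate set of both, or 8673 of 36023 listed regions. The study had 4 libraries, 2 H3K23ac ChIP libraries and 2 inputs, which are chromatin DNA sequenced without precipitation. All came from nuclei of Oregon-R larvae (official name Oregon-R-modENCODE) of wild-type genotype at the third instar, with no treatment given, and the labels name no single tissue. Inputs and ChIP libraries carry the same replicate numbers in their titles, and the inputs were not analysed on their own here. The labels do not say whether the replicates were separate collections of larvae, so their spread may be technical.

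Acetyl groups are placed on histone tails by histone acetyltransferases and removed by deacetylases. Acetylated tails weaken the contacts within chromatin and are bound by bromodomain proteins, and they mark chromatin that is open and active. 3R is the longest arm of the fly genome and carries both Hox gene complexes. In larvae many tissues hold polytene chromosomes, in which compact bands and open interbands alternate along each arm. No annotation of release 5 was used here, so clusters are named by position and not by gene.

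H3K23ac clusters were spread over the whole of 3R, with 61.6 per Mb in replicate 1 and 112.0 per Mb in replicate 2. The mean was 86.8 ± 35.6 clusters per Mb (SD, n = 2), and the replicate set had 161.2 per Mb. Clusters covered 12.4% of the stretch in replicate 1 (3.21 Mb) and 29.0% in replicate 2 (7.50 Mb), a mean of 20.7 ± 11.7% (SD, n = 2), and 46.7% in the replicate set (12.1 Mb). Replicate 2 thus had 1.82 times the clusters and 2.34 times the covered sequence of replicate 1. The depth of each library is unknown, as no read totals were at hand, and a longer list does not show more H3K23ac. No test of a level was made with 2 replicates.

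Most clusters were short, and the narrowest measured 1301 bp in each replicate and 1001 bp in the set. Widths of the set and of the replicates thus start from unlike minima. Clusters on 3R had a median width of 1707 bp in replicate 1 against 1987 bp for replicate 2 (mean 1847 ± 198.0 bp, SD, n = 2), and 1978 bp in the replicate set. The middle 50% of clusters spanned 1439 to 2123 bp (replicate 1), 1545 to 2933 bp (replicate 2) and 1389 to 3300 bp (set). The lists therefore differed more in their wide clusters than in their typical one. Clusters of at least 5000 bp numbered 35 (2.19%) in replicate 1, 224 (7.72%) in replicate 2 and 515 (12.3%) in the set. The widest measured 10211 bp (replicate 1), 18568 bp (replicate 2) and 29609 bp (set). The widest 10% of clusters held 21.3% of the clustered bases in replicate 1, 26.1% in replicate 2 and 31.6% in the set.

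Spacing was uneven in each list, with many short gaps and a few long cluster-free stretches. The median gap from the end of a cluster to the start of the next was 5224 bp in replicate 1, against 2579 bp for replicate 2 (mean 3901 ± 1871 bp, SD, n = 2), and 1315 bp in the set. Mean gaps were far longer, at 14214, 6339 and 3301 bp in replicate 1, replicate 2 and the set. Gaps under 1000 bp made up 17.2% of the gaps in replicate 1, 28.2% in replicate 2 and 42.9% in the set. Clusters thus often stood in chains: 31.6% of replicate 1 clusters, 47.0% of replicate 2 clusters and 65.4% of set clusters had a neighbour less than 1 kb away. The longest chain of replicate 1 ran over 17637 bp with 4 clusters (3R 14817853 to 14835489). That of replicate 2 ran over 42541 bp with 9 clusters (3R 8062813 to 8105353). At the other end of the distribution, gaps over 20 kb were 19.9% of the gaps in replicate 1 but took up 62.3% of the arm. In replicate 2 they were 7.38% of gaps and 29.9% of the arm, and in the set 2.23% and 10.1%.

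**Figure D1:**
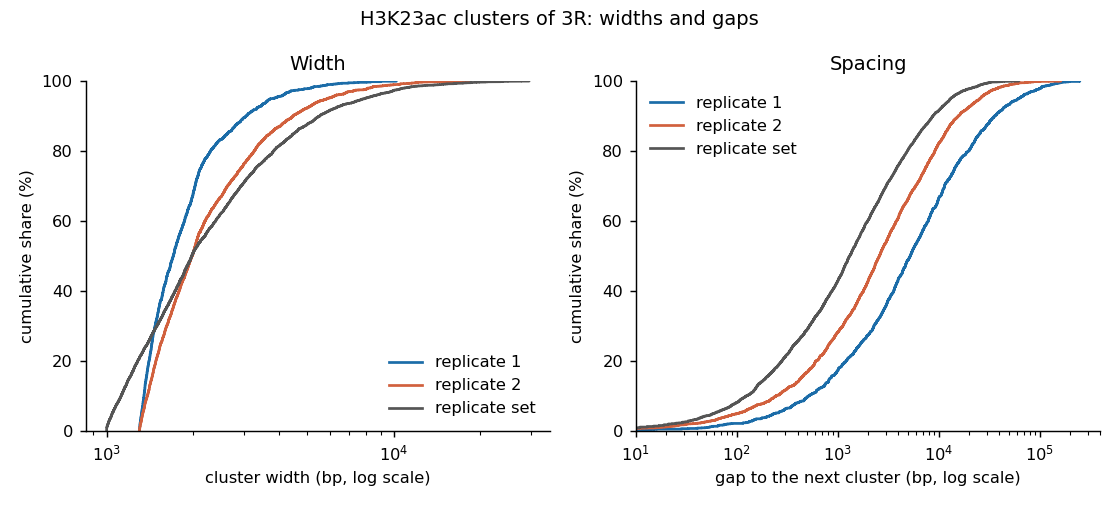
Cumulative share of H3K23ac clusters of 3R by width (left, bp, log scale) and of gaps by length (right, bp, log scale) in replicate 1, replicate 2 and the replicate set. The width curves of replicate 2 and the set cross near their medians of 1987 and 1978 bp, whereas the curves of spacing are shifted as a whole, with medians of 5224, 2579 and 1315 bp.

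The score that the authors gave each cluster, whose scale no header states, varied little in its middle range. Its median on 3R was 0.54 in each replicate (0.54 ± 0.00033, SD, n = 2) and 0.38 in the replicate set. The middle 50% of scores ran from 0.49 to 0.59 in replicate 1, 0.48 to 0.60 in replicate 2 and 0.34 to 0.43 in the set. Wider clusters tended to have higher scores. Across clusters, the Spearman correlation of width and score was 0.462 in replicate 1 (1596 clusters), 0.620 in replicate 2 (2901) and 0.498 in the set (4176). These are descriptions, since clusters of a list share their library and depth. At the border of the stretch, the first one inside and the last one outside had widths of 1715 and 1681 bp (replicate 1), 1495 and 3257 bp (replicate 2), and 1067 and 3373 bp (set). Their scores were 0.50 and 0.58 (replicate 1), 0.45 and 0.75 (replicate 2), and 0.35 and 0.53 (set).

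Cluster density varied widely between neighbouring windows of 100 kb, and the same windows tended to be dense or sparse in both replicates. The 259 full windows held 0 to 24 clusters in replicate 1 (median 6), 0 to 25 in replicate 2 (median 11) and 3 to 29 in the set (median 16). The variance of the number per window was 2.89 times its mean in replicate 1 and 2.08 times in replicate 2, and 1.27 times in the set. Covered sequence per window ran from 0 to 51.4% in replicate 1 (median 10.8%), 0 to 78.2% in replicate 2 (median 27.9%) and 5.03 to 91.9% in the set (median 45.2%). Across the 259 windows the number of clusters in replicate 1 and replicate 2 gave a Spearman correlation of 0.761 and a Pearson correlation (r) of 0.731, with r = 0.738 without the 2 windows farthest from the median. For covered percent the Spearman correlation was 0.850 and r 0.853 (0.842 without 2 windows). The windows share libraries, mappability and base composition, and these values carry no test.

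**Figure D2:**
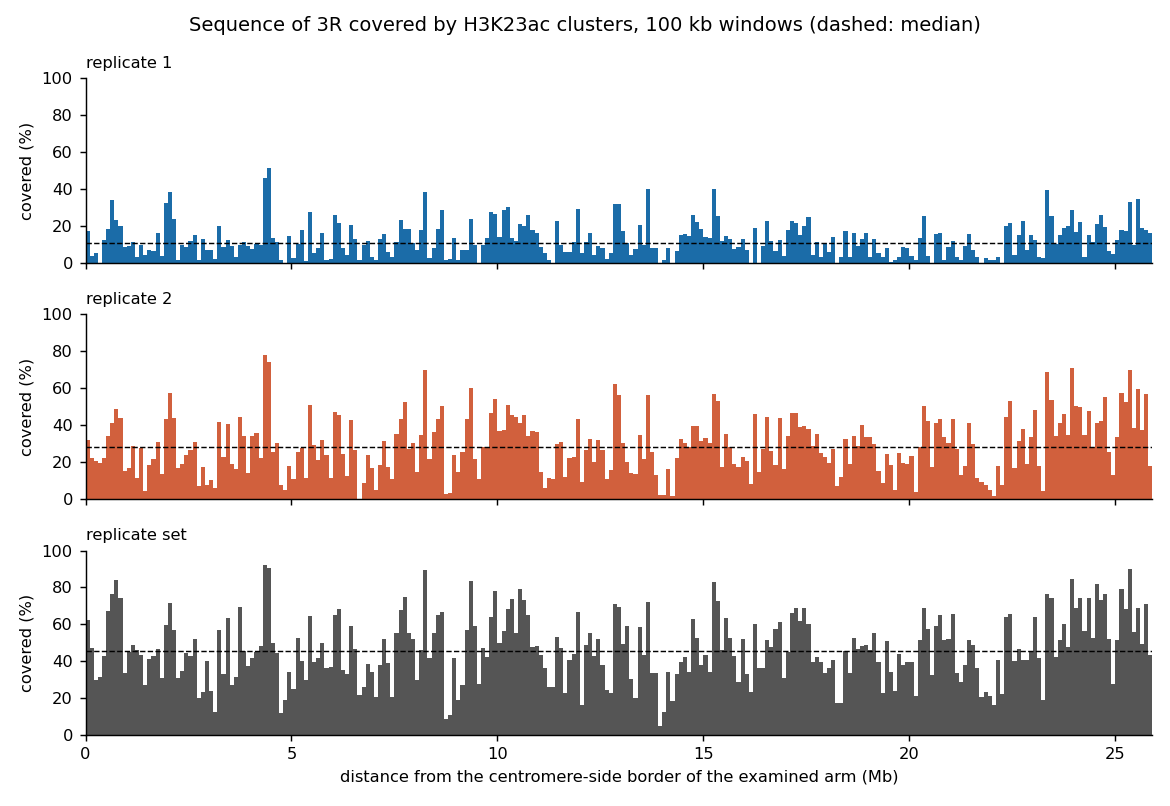
Percent of each 100 kb window of 3R covered by H3K23ac clusters, against distance from the centromere-side border of the examined stretch in Mb, for replicate 1, replicate 2 and the replicate set (dashed lines: medians of 10.8%, 27.9% and 45.2%). Tall and low windows tend to fall at the same places in the 3 panels, as at the paired peak between 4 and 5 Mb with up to 51.4%, 78.2% and 91.9%.

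Of the 65 most covered windows of replicate 1, 49 (75.4%) were also among the 65 most covered of replicate 2, and 47 (72.3%) of the 65 least covered were shared. No window was in the upper 65 of replicate 1 and the lower 65 of replicate 2, and 1 window was the other way round. Replicate 2 had more clusters in 235 windows, the same number in 17 and fewer in 7. It covered more sequence in 256 windows, and the 3 exceptions were the windows from 8600001, 8700001 and 24000001. The surplus of replicate 2 was thus spread over nearly all of the arm.

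**Figure D3:**
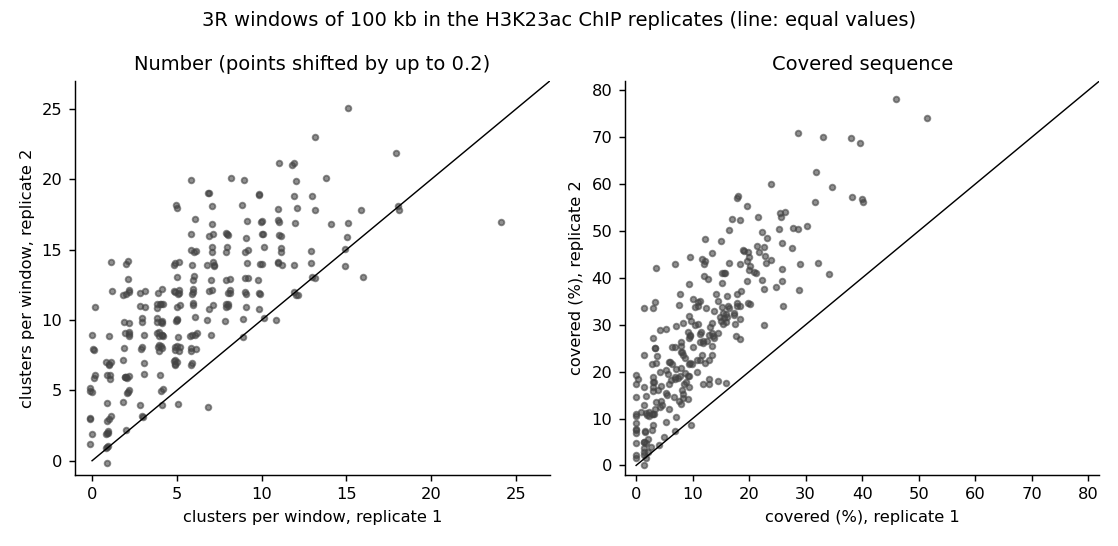
Each point is a 100 kb window of 3R, with replicate 1 on the horizontal and replicate 2 on the vertical axis, as number of clusters (left) and percent covered (right); the line marks equal values. Most points lie above the line (235 windows for number, 256 for covered percent) and rise together, with the Spearman correlation of 0.761 and 0.850.

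Median width and score per window agreed much less between the replicates than density did. In the 156 windows with at least 5 clusters in both, the Spearman correlation between replicates was 0.279 for median width and 0.149 for median score. Among windows with 5 or more clusters of a replicate, the denser ones did not hold clearly higher-scoring clusters. The Spearman correlation of cluster number and median score was 0.033 in replicate 1 (158 windows) and 0.037 in replicate 2 (235 windows). Windows with fewer clusters were left out of these values. Neighbouring windows resembled each other only over short distances. The Spearman correlation of covered percent between adjacent windows was 0.25 in replicate 1, 0.357 in replicate 2 and 0.362 in the set, and at a distance of 10 windows it was -0.037, -0.074 and -0.064.

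The densest place on the arm was a pair of adjacent windows, 3R 6300001 to 6400000 and 6400001 to 6500000. The first was 46.0% covered in replicate 1, 78.2% in replicate 2 and 91.9% in the set, and the second 51.4%, 74.1% and 90.6%. The second window overlapped 24 clusters of replicate 1, 18 of replicate 2 and 12 of the set. There the longer lists held fewer clusters, the reverse of the arm as a whole. The widest set cluster of 3R spanned their common border (6375352 to 6404960, 29609 bp, score 0.63). It held 6 clusters of replicate 1, from 1451 to 4696 bp wide, and 2 of replicate 2 of 16793 and 12156 bp. Replicate 1 covered 62.7% of it and replicate 2 covered 97.8%.

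The next most covered windows, by the mean of both replicates, were 3R 25300001 to 25400000 (39.6% in replicate 1, 68.7% in replicate 2), 10200001 to 10300000 (38.1% and 69.9%) and 27300001 to 27400000 (33.1% and 70.0%). The set covered 76.4%, 89.7% and 90.02% of them with 9, 15 and 10 overlapping clusters. Counted by start, the windows that the set covered most, from 6300001, 6400001, 27300001 and 10200001, held 10, 11, 9 and 14 of its clusters, fewer than its median of 16 over all windows. The next in order, from 25900001 and 2700001, held more than that median, with 20 and 19 clusters at 84.5% and 83.8% coverage. Over all 259 windows the Spearman correlation of cluster number and covered percent was 0.970 in replicate 1, 0.887 in replicate 2 and 0.454 in the set.

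The other wide set clusters also overlapped several clusters of each replicate. They lay at 25330880 to 25358632 (27753 bp, score 0.57), 24717628 to 24744426 (26799 bp, 0.64), 24435206 to 24460086 (24881 bp, 0.53) and 14813980 to 14838358 (24379 bp, 0.61). Replicate 1 had 4, 5, 6 and 5 clusters there, and covered 54.4%, 69.4%, 37.8% and 74.7%. Replicate 2 had 4, 3, 2 and 3 clusters, and covered 84.6%, 96.4%, 94.9% and 94.5%. The gaps between the clusters of a replicate were at times very small. In replicate 2 the clusters from 14823110 to 14829427 and from 14829428 to 14837814 touched without a base between them. Over the whole stretch 267 set clusters held at least 2 clusters of replicate 1 (at most 7) and 398 held at least 2 of replicate 2 (at most 6).

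The widest stretches called in both replicates were shorter. They lay at 6342230 to 6351242 (9013 bp), 16595369 to 16603642 (8274 bp), 24730229 to 24738082 (7854 bp), 18585755 to 18593272 (7518 bp) and 8079726 to 8087027 (7302 bp). In each of the 5, a single cluster of each list spanned the stretch.

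Windows above the median coverage of both replicates stood in long runs in some parts of 3R. The longest was 12 windows from 11800001 to 13000000, where clusters covered on average 21.1% in replicate 1, 42.4% in replicate 2 and 63.3% in the set. A run of 10 windows lay from 16400001 to 17400000 (20.5%, 37.4% and 50.1%). Between 25600001 and 27800000, 4 such runs of 3 to 6 windows followed each other closely toward the telomere.

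Runs below both medians were nearly as long. The longest, of 10 windows from 21200001 to 22200000, had mean coverage of 4.31% in replicate 1, 16.2% in replicate 2 and 35.3% in the set. The run with the lowest coverage in replicate 1 was that from 23600001 to 24300000, with 1.69% in replicate 1 (8 clusters), 8.50% in replicate 2 (32 clusters) and 25.8% in the set. Another of 7 windows lay from 15700001 to 16400000 (4.51%, 11.8% and 24.4%), directly beside the run of 10 covered windows named above. The step between the windows on either side of this border was smaller than that between the means of the runs. It went from 6.08% to 15.3% in replicate 1, from 22.0% to 32.5% in replicate 2 and from 33.2% to 39.6% in the set.

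Windows without any cluster were few, but thinly covered ones were not rare in replicate 1. Less than 5% was covered in 65 of the 259 windows in replicate 1, in 14 in replicate 2 and in none in the set. Replicate 1 had no cluster start in 13 windows, replicate 2 in 1 and the set in none of the 259, where its lowest number was 3. The least covered windows by the mean of both replicates were 8600001 to 8700000 (1.33% in replicate 1, 0% in replicate 2), 16200001 to 16300000 (0% and 1.496%), 15900001 to 16000000 (0% and 2.22%), 24000001 to 24100000 (1.68% and 1.63%) and 16000001 to 16100000 (1.46% and 2.26%). The set covered 21.5%, 18.4%, 5.03%, 16.3% and 12.6% of these windows. The window from 8600001 therefore held 15 clusters of the set but only 1 of replicate 1 and none of replicate 2.

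The longest gaps of the 3 lists fell partly at the same places. In the set they were 15914987 to 15977133 (62147 bp), 5124733 to 5181211 (56479 bp), 20478335 to 20530609 (52275 bp), 6900639 to 6947055 (46417 bp) and 20219327 to 20263377 (44051 bp), and no replicate had a cluster in any of the 5. As the set came from the same libraries and overlapped nearly all replicate clusters, this absence is largely built in. The longest gap of replicate 1 ran from 6705135 to 6955042 (249908 bp) and held 7 clusters of replicate 2 and 22 of the set. Its second, from 15842496 to 16088504 (246009 bp), held 4 and 22. The longest gap of replicate 2, from 8573800 to 8735777 (161978 bp), held 4 clusters of replicate 1 and 24 of the set, which covered 22.3% of it.

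Replicate 2 met most 3R clusters of replicate 1. By at least 1 shared bp it overlapped 1323 of 1596 (82.9%, 95% exact binomial interval 81.0 to 84.7), against 81.6% over all clusters of that list. Replicate 1 overlapped 1212 of the 2901 clusters of replicate 2 (41.8%, interval 40.0 to 43.6), against 39.9% over the whole list. Both shares on 3R thus lay near the background of the genome. With a reciprocal overlap of at least 50% they were 45.2% and 24.9%. The stretches called in both numbered 1433, had a median of 1521 bp and came to 2.40 Mb of the 8.31 Mb that either replicate covered, a Jaccard index of 0.289. They were 74.8% of the clustered bases of replicate 1 and 32.0% of those of replicate 2. Intervals here cover counting error only.

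Where a cluster of each replicate met a single cluster of the other, that of replicate 2 was usually the wider. In these 869 pairs the median width was 1725 bp for replicate 1 against 2483 bp for replicate 2, and replicate 2 was wider in 687 (79.1%). The replicate 1 cluster lay wholly inside that of replicate 2 in 379 pairs (43.6%), and the reverse held in 56 (6.44%). The centres were a median of 413 bp apart, well under a cluster's width. Starts differed by a median of 476 bp and ends by 445 bp. Scores of the paired clusters gave a Spearman correlation of 0.274 across pairs, and widths one of 0.30. Clusters that met thus differed in score and width from replicate to replicate.

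Wide clusters were met by the other replicate more often than narrow ones. In replicate 1 the share rose with width over the classes, with 73.5% of 520 clusters under 1500 bp, 81.7% of 557 from 1500 to 2000 bp, 90.9% of 350 from 2000 to 3000 bp, 99.3% of 134 from 3000 to 5000 bp and all 35 wider ones. In replicate 2 the shares in the same classes were 18.8% of 611, 28.1% of 854, 48.1% of 745, 63.4% of 467 and 90.6% of 224. A wide cluster also meets another list more often by its length alone, and how much of the rise this gives was not tested. By score, the share in replicate 2 was 30.5% of 751 clusters from 0.4 to 0.5 and 73.4% of 207 clusters of at least 0.7. In replicate 1 it was 79.0% of 428 (interval 74.8 to 82.7) and 90.9% of 22 (70.8 to 98.9) in these classes, and the intervals overlap. The rise was not steady in replicate 2, where 34.0% of 188 clusters from 0.3 to 0.4 were met. Higher-scoring clusters of replicate 2 were also wider, with medians of 4093 bp from 0.7 and 1653 bp from 0.4 to 0.5. The part of width in the rise with score was not tested. Clusters found in a single replicate stood farther from their neighbours. The median distance to the nearest cluster of the same list was 4340 bp for the 273 clusters of replicate 1 alone and 2070 bp for the 1323 shared ones, and 1501 and 804.5 bp in replicate 2.

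**Figure D4:**
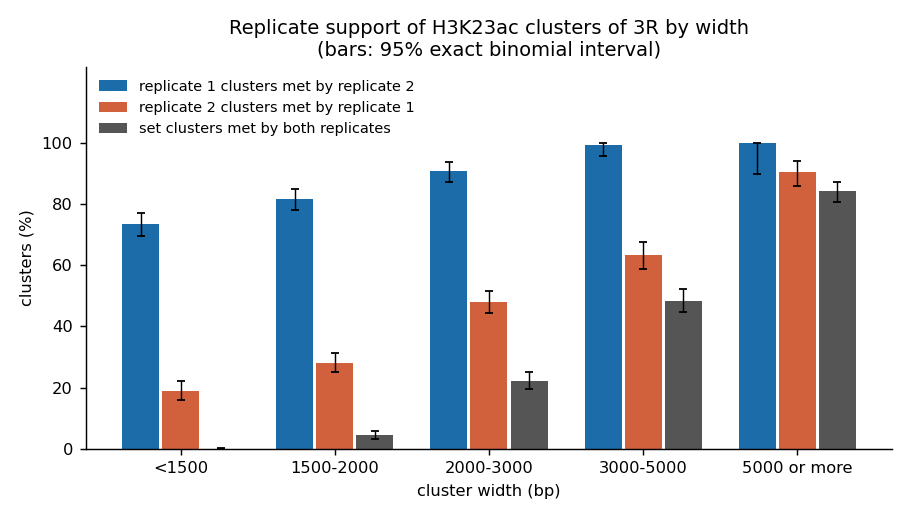
Share of 3R clusters in percent by width class in bp, for replicate 1 clusters met by replicate 2, replicate 2 clusters met by replicate 1 and set clusters met by both (whiskers: 95% exact binomial intervals, counting error only). All 3 shares climb with width, from 73.5%, 18.8% and 0% under 1500 bp to 100%, 90.6% and 84.3% at 5000 bp and more.

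The replicate set overlapped nearly all clusters of both replicates on 3R, 1590 of 1596 (99.6%) and 2863 of 2901 (98.7%). Of its own 4176 clusters, 997 (23.9%, interval 22.6 to 25.2) overlapped both replicates, against 21.8% over the whole list. Another 223 (5.34%) overlapped replicate 1 alone and 1409 (33.7%) replicate 2 alone, against 5.34% and 33.6%. The remaining 1547 (37.0%, interval 35.6 to 38.5) overlapped neither, against 39.3%. The shares of 3R thus stayed within a few percentage points of the whole list in each class.

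The clusters in both were the wide ones and held much of the sequence. They had a median of 4557 bp and a score of 0.45, and made up 47.1% of the set's clustered bases. Those in neither had a median of 1307 bp and a score of 0.36, and made up 19.0%. Among 1257 set clusters under 1500 bp none was in both, which allows a share of up to 0.293% by the exact interval, and 80.1% were in neither. Of the 515 clusters of at least 5000 bp, 84.3% were in both and 1 was in neither. Part of this follows from the lists themselves, since no replicate cluster was narrower than 1301 bp while 868 set clusters were, and 760 of those were in neither. Without them 23.8% of set clusters were in neither, and when at least 50% of the set cluster had to be covered, 11.9% were in both. As the set was made from the same libraries, its overlap with them is partly built in.

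Support followed local density. With windows ranked by mean coverage of both replicates, 49.1% of the 106 replicate 1 clusters in the 64 sparsest windows were met by replicate 2 (interval 39.2 to 59.0), then 76.9% of 294, 84.5% of 452 and, in the 65 densest windows, 89.1% of 744 (86.7 to 91.3). For replicate 2 the same shares were 14.6% of 343, 32.8% of 653, 42.7% of 859 and 55.5% of 1046. In the set the share in both was 5.76%, 17.5%, 29.0% and 40.3%, and the share in neither 58.0%, 42.4%, 28.9% and 22.6%. A list that covers more of a window meets more clusters there by coverage alone, and that part was not tested. The clusters themselves were wider in the more covered windows, which follows in part from ranking windows by coverage, since width adds to coverage. Median width in the densest and the sparsest windows was 1772 and 1507 bp (replicate 1), 2162 and 1639 bp (replicate 2), and 2705 and 1525 bp (set). Among windows with 5 or more clusters of a replicate, cluster number and median width gave a Spearman correlation of 0.0097 in replicate 1 (158 windows). In replicate 2 it was 0.269 (235 windows). Windows with fewer clusters were left out, so these values do not cover the sparsest windows. Median scores in the most and the least covered windows were both 0.55 for replicate 1, while replicate 2 had 0.55 and 0.53, and the set 0.39 and 0.37.

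Along the arm, 1 megabase stood below the others in support. From 21000001 to 22000000, 14 of 32 replicate 1 clusters (43.8%, interval 26.4 to 62.3) were met by replicate 2, against 1309 of 1564 (83.7%, interval 81.8 to 85.5) on the rest of 3R. Of 96 replicate 2 clusters there, 14 (14.6%, interval 8.21 to 23.3) were met by replicate 1, against 1198 of 2805 (42.7%) elsewhere on 3R. This bin was picked after its values were seen, as the lowest of 25. The other 24 megabases ran from 71.4% to 91.5% in replicate 1, and the median of the 25 was 83.3%. In the 62 full megabases of 2L, 2R and 3L the lowest share in replicate 1 was 50.0% and the median 81.7%. That lowest share came from 24 clusters (interval 29.1 to 70.9). For replicate 2 the lowest there was 21.2% of 66 clusters (interval 12.1 to 33.0) and the median 40.8%. Both intervals overlap those of the picked bin. The replicates covered little of the bin, and their clusters there were narrower and lower in score than on the rest of 3R. Replicate 1 covered 5.41% of it and replicate 2 covered 19.8%, the lowest values of the 25 bins for both. The set differed in number, with 189 clusters in the bin against a median of 162 over the 25 bins. It covered 39.4% of the bin, against a median of 43.7%. Median scores were 0.51 in the bin and 0.54 on the rest of 3R in replicate 1, and 0.49 and 0.54 in replicate 2. Median widths were 1506 and 1715 bp (replicate 1), and 1833 and 2001 bp (replicate 2). The bin next lowest in support, from 23000001 to 24000000, was covered nearly as little, 5.56% in replicate 1 and 20.4% in replicate 2. There 71.4% of 28 replicate 1 clusters (interval 51.3 to 86.8) and 22.6% of 84 replicate 2 clusters (14.2 to 33.0) were met. These intervals overlap those of the picked bin. The part of sparse coverage in the low support was not tested.

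**Figure D5:**
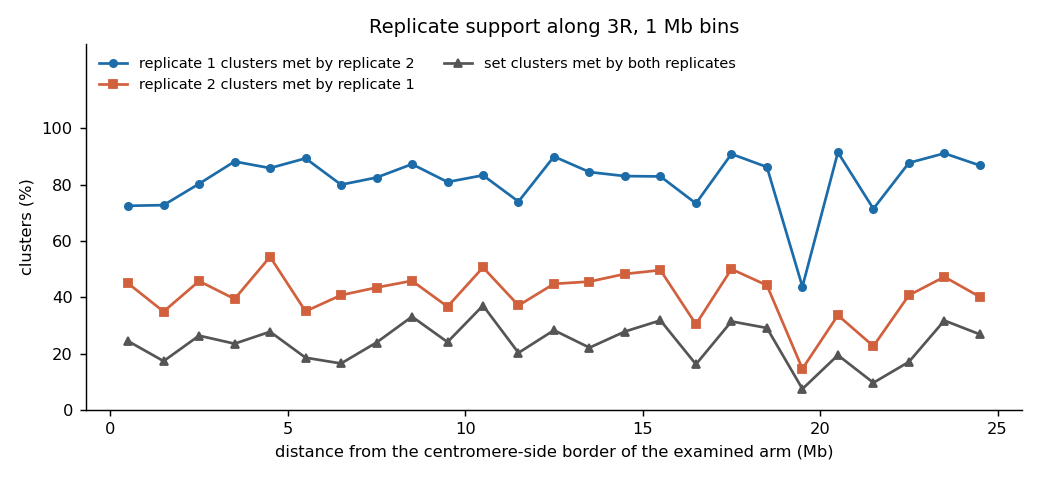
Share of 3R clusters in percent in 25 bins of 1 Mb, against distance from the centromere-side border of the examined stretch in Mb, for replicate 1 clusters met by replicate 2, replicate 2 clusters met by replicate 1 and set clusters met by both. All 3 lines dip in the bin from 19 to 20 Mb (positions 21000001 to 22000000), to 43.8%, 14.6% and 7.41%, against medians of 83.3%, 43.4% and 24.1%.

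The replicates changed rank most in windows that replicate 2 alone covered well. The window from 22400001 had 2 clusters and 3.44% coverage in replicate 1 and 14 clusters and 42.0% in replicate 2, ranks of 54 and 204 among 259. That from 22800001 had 1 cluster (1.31%) and 14 clusters (33.6%), ranks of 15 and 161. In the other direction, the last full window before the telomere, from 27800001, had 9 clusters (16.0%) in replicate 1 and 10 (17.6%) in replicate 2, ranks of 182 and 68. It was thus a fairly covered window in the short list and a poorly covered one in the long list.

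Coverage changed little from centromere to telomere, and not alike in the replicates. The distal part of the stretch was covered 12.2% and the proximal part 12.6% in replicate 1, whereas in replicate 2 it was 30.0% and 27.9%. The mean difference, distal minus proximal, was 0.80 ± 1.77 percentage points (SD, n = 2), less than its spread and of opposite sign in the replicates (-0.45 and 2.05). Over 3 equal parts from centromere to telomere, coverage was 12.3%, 13.3% and 11.6% in replicate 1. It climbed over the same parts in replicate 2 (27.1%, 28.4% and 31.3%) and, mostly in the last part, in the set (45.7%, 45.8% and 48.7%). Single megabases ranged from 5.41 to 19.9% in replicate 1 and from 19.8 to 41.9% in replicate 2. Across the 25 bins the replicates' coverage gave a Spearman correlation of 0.709 and a Pearson correlation (r) of 0.808 (0.738 without 2 bins). The telomeric megabase was covered 18.1% in replicate 1, 43.6% in replicate 2 and 60.4% in the set, against 12.2%, 28.4% and 46.2% on the rest of the stretch. The set nonetheless had slightly fewer clusters there, 151.0 per Mb against 161.6 per Mb on the rest.

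The 5 highest-scoring clusters of the set on 3R included 4 narrow ones that were not in both replicates. They were 13341278 to 13342278 (score 2.62), 3528564 to 3530106 (1543 bp, 1.93), 3921884 to 3922960 (1077 bp, 0.93), 20032750 to 20033980 (1231 bp, 0.72) and 25381996 to 25390968 (8973 bp, 0.70). The first, the third and the fourth overlapped no replicate cluster. The second met a single cluster of replicate 2 (3528576 to 3529971, 1396 bp) with a score of 3.17, the highest of that replicate on 3R, and none of replicate 1. The fifth was of another kind, with 2 clusters of replicate 1 covering 81.3% of it and 1 of replicate 2 covering 99.7%. Just below these extremes the set's scores went with width and support. Of the 55 set clusters with scores from 0.6 to 0.7, 92.7% were in both replicates and 1 was in neither, with a median width of 5759 bp. Of the 273 from 0.5 to 0.6, 86.1% were in both.

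In replicate 1 the highest-scoring cluster of 3R lay close to the telomere, at 27806375 to 27807792 (1418 bp, score 1.13). Replicate 2 had a cluster at 27806494 to 27808116 with a score of 0.93, also among its 5 highest on 3R. Both replicates thus placed a top cluster within the same few kb, and in the set it was part of a cluster of 5629 bp with a score of 0.62. A second pair lay beside it, with scores of 0.82 in replicate 1 and 0.59 in replicate 2. Of the 5 highest-scoring clusters of replicate 1, replicate 2 met 4, and the exception was 9359704 to 9361846 (score 0.76). Of the 5 highest of replicate 2, replicate 1 met all but 3528576 to 3529971.

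Compared with the other large autosomal arms, each taken without the 2 Mb next to its centromere, 3R was covered to a like extent. Covered sequence was 12.4% on 3R and 12.2% on 2L, 2R and 3L together in replicate 1, and 29.0% and 27.8% in replicate 2. The ratio was 1.02 and 1.04, a mean of 1.03 ± 0.018 (SD, n = 2). Against single arms 3R lay above 2L (11.6% in replicate 1, 25.1% in replicate 2) and 3L (11.7%, 25.7%) and below 2R (13.5%, 33.2%) in both replicates. X was covered 5.24% and 17.8%, so the ratio of 3R to X was 2.36 and 1.63 (mean 1.99 ± 0.520, SD, n = 2). Windows without a cluster in replicate 1 were 5.02% of windows on 3R, 7.62% on 2L, 3.66% on 2R, 6.22% on 3L and 18.6% on X. The share of replicate 1 clusters met by replicate 2 was 82.9% on 3R, 80.4% on 2L, 87.1% on 2R, 80.7% on 3L and 71.4% on X. In each of these measures 3R lay between 2R and the other autosomal arms. The share of replicate 2 clusters met by replicate 1 did not follow this order, with 41.8% on 3R, 42.3% on 2L, 41.9% on 2R, 42.4% on 3L and 25.8% on X. Median scores were higher on X than on 3R, the reverse of coverage. They were 0.63 in replicate 1, 0.62 in replicate 2 and 0.43 in the set on X, against 0.54, 0.54 and 0.38 on 3R. The lower coverage of X does not by itself show less H3K23ac there, and the cause of neither difference was tested. None of these differences was tested, as an exact two-sided sign test over 2 replicates cannot go below p = 0.5.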

How the data were processed

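Python 3.11.15 with scipy 1.17.1 and numpy 2.4.6 was used to compute all values from 3 deposited lists of enriched regions in FlyBase release 5, per the file headers: 1 for each ChIP replicate and 1 for the replicate set. The score of each region is the authors' own, deposited without a stated scale. It was used to describe and rank regions within a list and, as a description, to set the lists side by side. Whether the lists share a scale is not stated. The submitters' processing notes name Bowtie 0.12.7, per the labels. No source used here names the peak caller, its threshold, its use of the inputs or the making of the set. That the set comes from both replicates was inferred from its name.

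Clusters of 3R were taken by start position. Coordinates are 1-based. Covered sequence counts each base once, and a cluster was assigned to a 100 kb window by its start. Overlap meant at least 1 bp. Shares carry 95% intervals by the exact binomial (Clopper-Pearson) method. Interval functions were tested on simulated data. No test across replicates was run, because 2 replicates are too few for any exact test to pass its threshold. Regions named were, for each kind, the 5 most extreme (most and least covered windows by the mean of both replicates, widest and highest-scoring set clusters, longest set gaps, widest stretches in both replicates). Runs, rank changes and the top clusters and gaps of single replicates were picked with their values in view. The members, lists and rules were chosen with earlier results of these data known.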

Additional observations from a re-analysis of the deposited data

How the results depend on the processing

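Of 45 alternative values for 12 results, 14 leave out a replicate, which with 2 replicates moves a mean by less than its SD by construction and says nothing of stability, and 4 are correlations without an error. Of the other 27, 9 stayed within the replicate SD or the exact interval of the value given above and 18 lay outside it. Keeping the better-scored 50% of each list gave 39.3 clusters per Mb and a median gap of 11109 bp, as fewer clusters were kept, and a median width of 2399 bp. It gave shared portions of 59.6% (replicate 1) and 30.8% (replicate 2), a window correlation of 0.613 and a ratio of 3R to the other autosomal arms of 0.999. A reciprocal overlap of 50% gave 45.2% and 24.9%. With as many highest-scoring clusters of replicate 2 as replicate 1 has, chosen after seeing the data, the shares were 58.5% and 49.7%. With 50% of a set cluster covered, 11.9% were in both and 41.8% in neither, and among set clusters as wide as the narrowest replicate cluster 30.1% and 23.8%. The window correlation of cluster number was 0.681 at 50 kb, 0.774 at 200 kb and 0.850 for covered percent. The arm ratio was 1.10 for whole arms, 1.11 against 2L, 0.897 against 2R and 1.09 against 3L. The distal minus proximal difference ran from -0.45 to 2.05 points when a replicate was left out. Where no cause is named, the cause was not tested. No paired analysis was possible because the inputs that share the replicate numbers have no list here and no result comes from a test. Depth is unknown, so what it limits could not be measured.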

Other observations

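Cluster coordinates of the set lay on a grid that those of the replicates did not follow. All 4176 set clusters of 3R started at an even position (100%), against 50.9% in replicate 1 and 49.4% in replicate 2. In 2 places on 3R consecutive set clusters shared a base, and in replicate 1 and replicate 2 consecutive clusters touched without a gap at 1 and 4 places. The longest chain of set clusters less than 1 kb apart ran over 86163 bp with 6 clusters (3R 25330880 to 25417042) and took in the widest replicate 1 cluster of the arm (25368572 to 25378782, 10211 bp).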
